A study of Mus musculus with 14 samples.

Results

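The genes described are 9 members of the lysosomal degradation machinery of the liver: the cathepsins Ctsa, Ctsb, Ctsd, Ctsh, Ctsl and Ctss, the glycosidase subunit Hexa, the cholesterol carrier Npc2 and the membrane glycoprotein Lamp1. Every probe set of the array whose annotation gives one of these symbols was taken. This found 13 probe sets of the 12488 on the array, and each of the 9 genes had at least 1. The arrays had been hybridised with liver RNA from dwarf mice of 22 months (n = 3), wild type mice of 22 months (n = 3), dwarf mice of 6 months (n = 4) and wild type mice of 6 months (n = 4), with 1 animal on each of the 14 arrays. Dwarf mice carry the Snell mutation of Pit-1 (Pou1f1), a pituitary transcription factor, and the wild type mice are their controls. The mutation is present throughout life and removes growth hormone, prolactin and thyrotropin together, so the parts of these hormones cannot be told apart. The labels give no sex, strain or batch, and the RNA came from pieces of whole liver.

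Lysosomes are acidic organelles in which material from endocytosis, phagocytosis and autophagy is digested. Cathepsins B, H, L and S are papain-like cysteine proteases, cathepsin D is an aspartic protease, and cathepsin A is a serine carboxypeptidase that also stabilises neuraminidase and beta-galactosidase in a complex. In liver, hepatocytes use this system for autophagy and for the breakdown of endocytosed proteins, and Kupffer cells, the resident macrophages, are rich in it. Many lysosomal genes carry a promoter element called CLEAR, a palindrome around the E-box CACGTG, which is bound by TFEB and its relatives.

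Of the genes higher at 22 months in wild type mice, Ctsa and Ctsd are shown because a promoter of each carries an E-box. Lamp1 is shown because its promoter carries the most E-boxes among the members. The change of Lamp1 passed in none of the 6 comparisons. Each promoter runs from 250 bases before to 50 bases after a gene start, 5′ to 3′ on the strand of the gene (RefSeq, GRCm38.p6). They lie at chr2:164833523-164833822 on the plus strand for the second of 2 starts of Ctsa, at chr7:142387778-142388077 on the minus strand for Ctsd and at chr8:13158911-13159210 on the plus strand for Lamp1. Capitals mark the E-box CACGTG, or TCACGTGA where its flanks extend it to the core of the CLEAR element.
Ctsa: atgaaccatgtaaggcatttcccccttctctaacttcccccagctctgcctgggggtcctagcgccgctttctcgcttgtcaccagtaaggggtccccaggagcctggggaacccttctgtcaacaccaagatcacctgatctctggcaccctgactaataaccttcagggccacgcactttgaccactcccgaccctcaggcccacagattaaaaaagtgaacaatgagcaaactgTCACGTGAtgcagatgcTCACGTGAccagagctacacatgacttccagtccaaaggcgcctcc
Ctsd: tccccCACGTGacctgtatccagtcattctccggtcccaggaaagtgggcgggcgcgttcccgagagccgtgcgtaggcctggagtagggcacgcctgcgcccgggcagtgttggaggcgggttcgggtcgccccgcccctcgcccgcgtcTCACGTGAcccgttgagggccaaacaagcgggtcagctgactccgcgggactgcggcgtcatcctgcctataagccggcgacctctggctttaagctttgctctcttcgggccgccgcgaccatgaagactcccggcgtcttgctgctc
Lamp1: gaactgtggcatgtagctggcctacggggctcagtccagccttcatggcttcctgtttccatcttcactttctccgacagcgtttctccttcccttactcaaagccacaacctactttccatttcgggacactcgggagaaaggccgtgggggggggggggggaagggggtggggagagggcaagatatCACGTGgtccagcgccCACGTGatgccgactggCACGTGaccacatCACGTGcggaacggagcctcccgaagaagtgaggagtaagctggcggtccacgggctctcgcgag

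Both E-boxes of the Ctsa promoter shown were in the extended form, with the C of CACGTG 12 bases before the start and at base 6 after it. The promoter at the first start of Ctsa held no E-box. Ctsd had 1 extended form, 98 bases before the start, and 1 plain E-box 245 bases before it, and Lamp1 had 4 plain E-boxes between 61 and 15 bases before the start. The promoter table held 7 of the 9 members, all but Ctsb and Ctsh. A gene was counted when the promoter of any of its starts held the motif. TCACGTGA was present for 2 of these 7 genes (Ctsa and Ctsd) and for 1.12% of all 27025 genes in the table. It was present for 10 of 64 other lysosomal genes (15.6%). CACGTG, which TCACGTGA contains, was present for 4 of the 7 (Ctsa, Ctsd, Ctsl and Lamp1), for 19 of the 64 (29.7%) and for 8.09% of all genes. The 10-base form of CLEAR, TCACGTGA with a G before and a C after it, was present for 0 of the 7, 2 of the 64 (3.12%) and 0.37% of all genes. Each motif reads the same on both strands, and a match says only that these letters are there.

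Values are MAS5 signals on a linear scale, which the authors had scaled to nearly the same trimmed mean on every array. A probe set was tested when its signal exceeded 184.8, the median of all values, on at least 3 arrays, and 7227 were. Of the 13 probe sets of the members, 11 were tested. Those 11 cover all 9 genes, and 10 of them exceeded that value on all 14 arrays. All 9 measured hepatocyte markers were above the floor of 54.9 on every array. The arrays differed in ways that move with age: 18S ribosomal RNA, read from 3 control sets, gave a mean signal from 204.3 to 2021 at 22 months, against 52.6 to 271.5 at 6 months, and the beta-actin 3′ to 5′ ratio, which reports on RNA integrity, ran from 1.25 to 1.74 at 22 months, against 1.16 to 2.69 at 6 months. Array measures also moved with genotype at 6 months: the beta-actin ratio ran from 2.29 to 2.69 in dwarf mice, against 1.16 to 2.38 in wild type mice. The 25th percentile of the signals ran from 56.5 to 74.1 in dwarf mice of 6 months, against 48.9 to 56 in wild type mice. The highest 18S signal (271.5) and the lowest ratio (1.16) at 6 months were those of wild type animal 88. The number of arrays limits the precision.

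The plot of signals by group shows the most strongly detected probe set of each gene in every mouse.

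**Figure D1:**
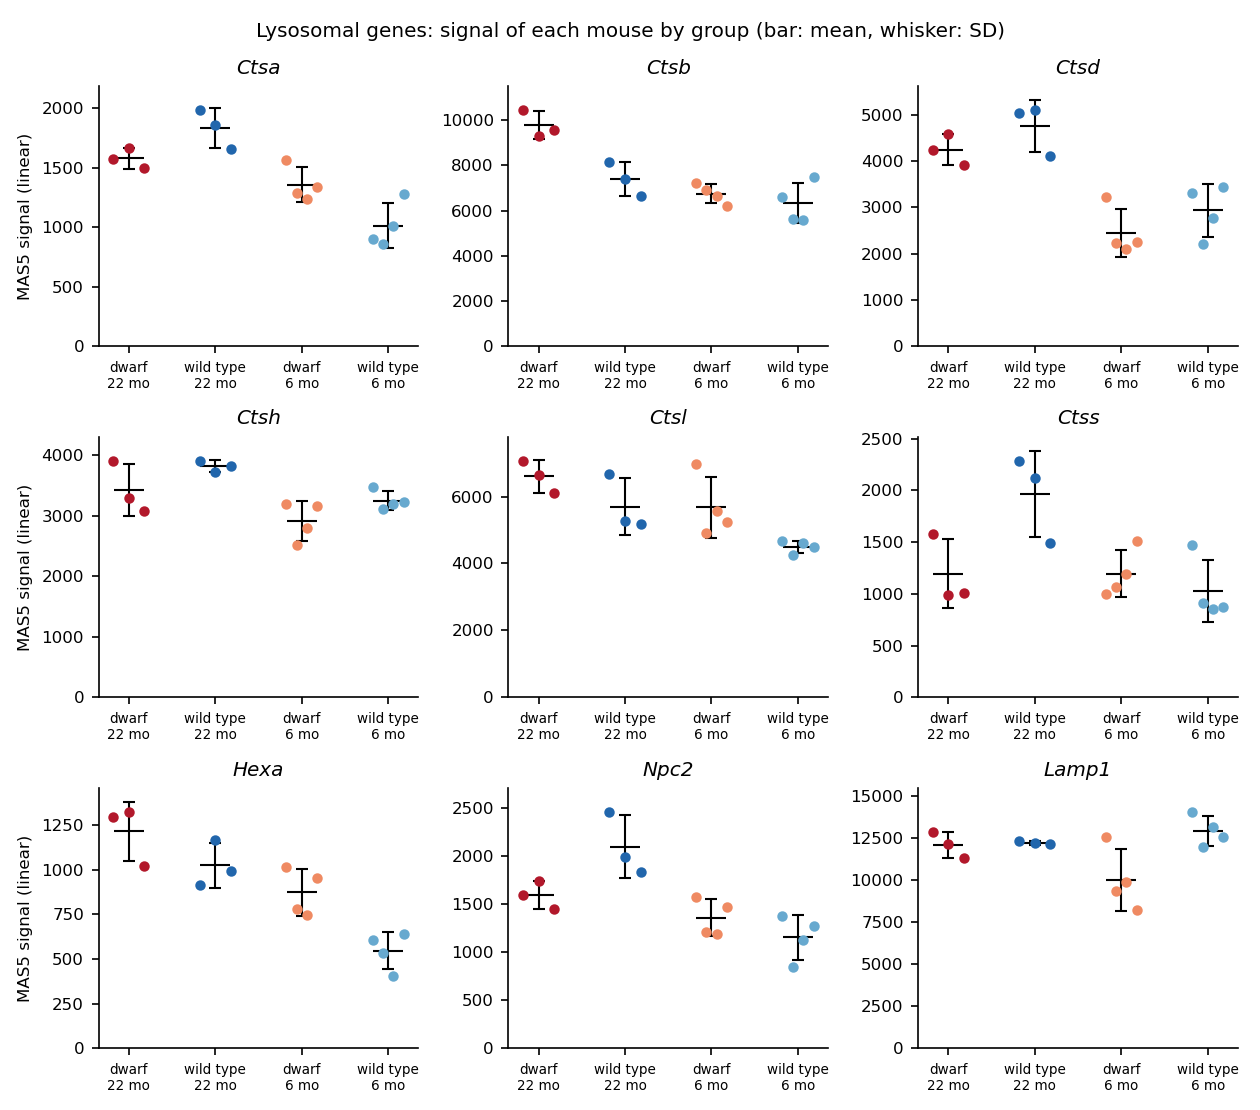
MAS5 signal (linear scale) of 9 lysosomal genes in each mouse, by group (22 months left of 6 months, dwarf left of wild type). Points are single mice, and bars with whiskers are the mean and SD. In wild type mice the 22-month points of Ctsa, Ctsd, Ctss, Hexa and Npc2 all lie above the 6-month points, while those of Lamp1 overlap.

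The comparison of 22 with 6 months in wild type mice asked how these genes change with age in the liver of normal mice. Of the 11 probe sets, 5 were higher at 22 months and none was lower: those of Ctsa, Ctsd, Ctss, Hexa and Npc2, between 1.64-fold and 1.94-fold. This is 45.5% of the members' probe sets, beside 1.45% of all 7227 tested probe sets that were higher and 1.04% that were lower (2.49% in either direction). The members were chosen with earlier results of these data known, so these shares are a description and not a test. The median log2 change was 0.33 over the 11 probe sets and -0.02 over all tested ones. The signals of 7 of the 11, those of the 5 and of Ctsh and Ctsl, did not overlap between the ages and were higher at 22 months, which was so for 8.12% of all tested probe sets (7.78% were lower without overlap). In whole liver, more cells of a type and more RNA per cell cannot be told apart.

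Among the proteases, Ctsa, the carboxypeptidase, had signals of 1988, 1855 and 1659 in wild type mice of 22 months, against 902, 858, 1013 and 1277 at 6 months. Every old wild type mouse was above every young one, and animal 88 was the highest of the young mice. The change was 1.83-fold (log2 0.87 ± 0.15, standard error, limma adjusted p = 0.00917). Ctsd, which activates and degrades other lysosomal proteins at low pH, had 5039.9, 5113 and 4120.0 in wild type mice of 22 months, against 3321, 2206.5, 2770.5 and 3442.5 at 6 months. It was 1.64-fold higher without overlap (log2 0.71 ± 0.18, limma adjusted p = 0.0455).

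Ctss, which trims the invariant chain of MHC class II in antigen-presenting cells, had 2287, 2115 and 1492 in wild type mice of 22 months, against 1469.5, 911, 854.5 and 869 at 6 months. The lowest old mouse and the highest young mouse nearly met. The change was the largest of the 11 probe sets, 1.94-fold (log2 0.95 ± 0.23, limma adjusted p = 0.0403).

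Hexa encodes the alpha subunit of beta-hexosaminidase A, which removes a sugar from GM2 ganglioside. Its probe set 94840_at had 916, 1164.5 and 991 in wild type mice of 22 months, against 606, 533, 406 and 639 at 6 months. The groups did not overlap, and the change was 1.89-fold (log2 0.92 ± 0.18, limma adjusted p = 0.0186). Npc2, which binds cholesterol in the lysosomal lumen and hands it to Npc1, had 2460.4, 1992 and 1832 in wild type mice of 22 months, against 1379, 843, 1124 and 1272 at 6 months. It was 1.83-fold higher without overlap (log2 0.87 ± 0.18, limma adjusted p = 0.0202).

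The remaining members did not pass with age in wild type mice. Ctsl, an endopeptidase of broad specificity, had 6669, 5268 and 5164 at 22 months, against 4658, 4258, 4609.9 and 4495.5 at 6 months (log2 0.33, 95% interval 0.04 to 0.62, limma adjusted p = 0.223). Ctsh, an aminopeptidase, had 3906, 3717 and 3819 at 22 months, against 3464, 3104, 3187.5 and 3229 at 6 months (log2 0.23, 95% interval -0.03 to 0.50, limma adjusted p = 0.35). In both genes the old mice lay above the young ones by a small margin. Lamp1, an abundant glycoprotein of the lysosomal membrane, ran from 12126 to 12329 in wild type mice of 22 months, against 11947 to 14073 at 6 months, with a log2 change of -0.08 (95% interval -0.36 to 0.21).

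Several array measures moved with this comparison. With the 18S signal as a covariate all 5 calls ended (limma adjusted p from 0.179 to 0.378), while their log2 changes lay between 0.66 and 1.05. The calls over the whole array fell to 9, against 180 without a covariate. That fit bears likewise on the calls with age in wild type mice given below for other genes. The calls of Ctsd and Ctss ended with the mean 3′ to 5′ ratio of Gapdh and beta-actin as a covariate (limma adjusted p = 0.0902 and 0.0672), with log2 changes of 0.66 and 0.96. Hexa, Npc2, Ctsd and Ctss each lost the call without some single arrays and with the compared groups fitted alone, as given in the closing section, and over all alternatives their changes were at least log2 0.70, 0.73, 0.58 and 0.83.

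The same age comparison in dwarf mice asked whether these genes change with age without growth hormone, prolactin and thyrotropin. Of the 11 probe sets, 2 were higher at 22 months, Ctsb (1.45-fold) and Ctsd (1.76-fold), and none was lower. This is 18.2% of the members' probe sets, beside 7.94% of all tested probe sets that were higher and 8.57% that were lower (16.5% in either direction). The share called is near that of the array in either direction. The median log2 change was 0.24 over the 11 probe sets and -0.09 over all tested ones, and 4 of the 11 (Ctsb 94831_at and 95608_at, Ctsd and Hexa) were higher without overlap, beside 12.6% of all tested probe sets (16.5% were lower without overlap).

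Ctsd had 4242.5, 4582 and 3909 in dwarf mice of 22 months, against 3229.5, 2223, 2098.5 and 2246 at 6 months. All old dwarf mice were above all young ones, among which animal 83 stood apart (log2 0.81 ± 0.18, limma adjusted p = 0.00804). Ctsb, an endopeptidase and dipeptidyl carboxypeptidase, had signals of probe set 94831_at of 10468.5, 9320.4 and 9566.5 in dwarf mice of 22 months, against 7203, 6895, 6659 and 6208 at 6 months. The groups were well apart (log2 0.54 ± 0.13, limma adjusted p = 0.0124). In wild type mice the same probe set had 8163, 7408 and 6671 at 22 months, against 6592, 5651, 5601 and 7479 at 6 months. These groups overlapped, with a log2 change of 0.23 (95% interval -0.04 to 0.51, limma adjusted p = 0.365).

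Of the other genes that were higher with age in wild type mice, Ctsa, Npc2, Ctss and Hexa did not pass in dwarf mice on the deposited scale. Ctsa had 1573, 1669 and 1495 in dwarf mice of 22 months, against 1568, 1286, 1239 and 1337 at 6 months. The groups overlapped through animal 83 (log2 0.22, 95% interval -0.10 to 0.54, limma adjusted p = 0.326). Npc2 had 1589.9, 1738 and 1449 in dwarf mice of 22 months, against 1578, 1212, 1184 and 1464 at 6 months (log2 0.24, 95% interval -0.14 to 0.61, limma adjusted p = 0.38).

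For Ctss the values of dwarf mice were 1582, 992 and 1013 at 22 months, against 1002, 1063, 1193 and 1515 at 6 months, with a log2 change of -0.01 (95% interval -0.51 to 0.48). The ages lay on top of each other. Hexa had 1295, 1324 and 1022 in dwarf mice of 22 months, against 1012, 779.6, 745 and 953 at 6 months. Its groups were separated by a narrow gap (log2 0.48, 95% interval 0.09 to 0.87, limma adjusted p = 0.083). Hexa passed with the arrays at a common median (log2 0.68, limma adjusted p = 0.0381) and with array weights (log2 0.54, limma adjusted p = 0.0336).

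In dwarf mice Ctsl ran from 6091 to 7072 at 22 months, against 4915 to 6975.5 at 6 months, Ctsh from 3083 to 3903, against 2507 to 3196.5, and Lamp1 from 11297 to 12850.1, against 8199.7 to 12549. None of these passed (limma adjusted p from 0.148 to 0.264). The calls of Ctsb and Ctsd ended with the 3′ to 5′ ratio as a covariate (limma adjusted p = 0.336 and 0.201) and with the 18S signal as one (0.094 and 0.0756). Ctsb then changed by log2 0.31 and 0.52 and Ctsd by 0.66 and 0.77, and the calls over the whole array went to 51 and 211, against 1193 without a covariate. Both fits bear likewise on the calls with age in dwarf mice given for other genes. The 3′ to 5′ ratio of beta-actin was 1.25 to 1.57 in dwarf mice of 22 months, against 2.29 to 2.69 at 6 months, and the part of these measures in the changes beyond those fits was not tested.

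The interaction of genotype and age asked whether the age changes differ between dwarf and wild type mice. None of the 11 probe sets passed (0 by limma at an adjusted p under 0.05, 3 at an unadjusted p under 0.05), beside 2.19% of all tested probe sets (1.54% positive and 0.65% negative). The 3 were Ctss, with an age change in dwarf mice smaller by log2 0.97 than in wild type mice (interaction -0.97 ± 0.33, limma adjusted p = 0.164), Ctsa (-0.65 ± 0.21, limma adjusted p = 0.154) and Npc2 (-0.64 ± 0.25, limma adjusted p = 0.25). For Ctsd the interaction was 0.10 (95% interval -0.43 to 0.63) and for Ctsb 94831_at 0.30 (95% interval -0.08 to 0.69). A different age change in dwarf mice was therefore not shown for any member.

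**Figure D2:**
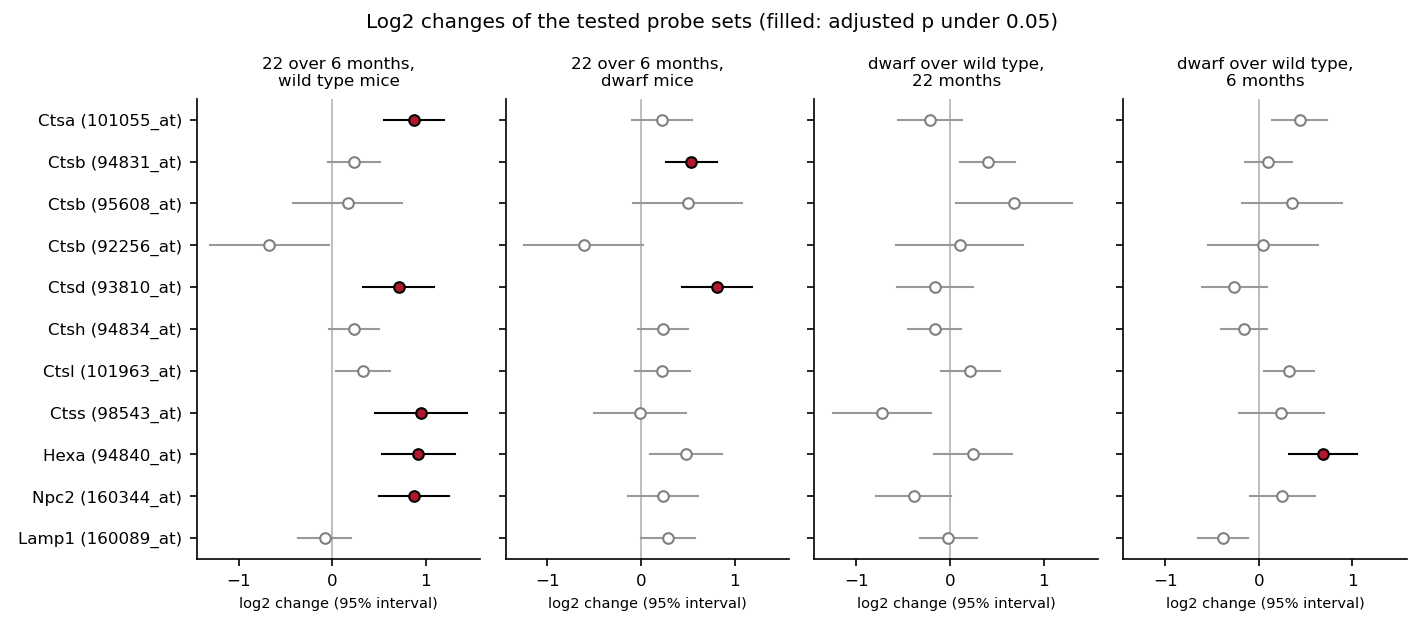
Log2 change (horizontal axis) of the 11 tested probe sets with its 95% interval from limma in 4 comparisons, filled where the adjusted p is under 0.05. In wild type mice 5 of 11 changes with age are filled, in dwarf mice 2, at 22 months none between genotypes and at 6 months that of Hexa.

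At 6 months dwarf mice were set against wild type mice to ask how these genes differ in young adults without growth hormone, prolactin and thyrotropin. Of the 11 probe sets, 1 was higher, that of Hexa, and none was lower. This is 9.09%, beside 6.37% of all tested probe sets that were higher and 6.95% that were lower (13.3% in either direction), so the share is near that of the array. Hexa had 1012, 779.6, 745 and 953 in dwarf mice, against 606, 533, 406 and 639 in wild type mice of 6 months. The groups did not overlap (1.61-fold, log2 0.69 ± 0.17, limma adjusted p = 0.0133).

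The call of Hexa ended once all arrays were brought to one common median (log2 0.49, limma adjusted p = 0.11), a scaling that moved the median change of all tested probe sets at 6 months to -0.10, against 0.10 as deposited, and that of age in dwarf mice to 0.12, against -0.09. The direction of Ctsb 94831_at turned under the same scaling (log2 -0.10, against 0.10 as deposited, neither called). Of the others, Ctsa (log2 0.43 ± 0.14, limma adjusted p = 0.0512) and Lamp1 (-0.38 ± 0.12, limma adjusted p = 0.0524) lay just outside the threshold.

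Ctsa had 1568, 1286, 1239 and 1337 in dwarf mice of 6 months, against 902, 858, 1013 and 1277 in wild type mice, and overlapped through animal 88 alone. Without animal 88 it passed (log2 0.55, limma adjusted p = 0.0116). Lamp1 had 12549, 9379, 9898 and 8199.7 in dwarf mice, against 14073, 11947, 13140.3 and 12542 in wild type mice of 6 months, and overlapped through dwarf animal 83. It passed as lower with the common median (log2 -0.58, limma adjusted p = 0.0176). Without animal 83 it passed as lower (log2 -0.50, limma adjusted p = 0.00838). Ctsl was the other member without overlap, with 6975.5, 4915, 5570.5 and 5241 in dwarf mice against 4258 to 4658 in wild type mice (log2 0.32, 95% interval 0.05 to 0.59, limma adjusted p = 0.108). The 2 members without overlap, both higher, stand beside 9.31% of all tested probe sets that were higher without overlap (7.8% were lower).

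For old mice, at 22 months, the question was the genotype difference late in life. None of the 11 probe sets passed (0 by limma at an adjusted p under 0.05, 3 at an unadjusted p under 0.05), beside 2.93% of all tested probe sets (1.37% higher and 1.56% lower). Without overlap, 2 of the 11 were higher and 1 lower, beside 10.3% and 11.5% of all tested probe sets. Both higher sets were of the same gene, Ctsb: 94831_at and 95608_at (the latter log2 0.69, 95% interval 0.07 to 1.31, limma adjusted p = 0.316). Ctsb 94831_at was 9320.4 to 10468.5 in dwarf mice against 6671 to 8163 in wild type mice, without overlap (log2 0.40, 95% interval 0.11 to 0.69, limma adjusted p = 0.159). It passed with array weights (limma adjusted p = 0.0404). Npc2 was 1449 to 1738 in dwarf mice against 1832 to 2460.4 in wild type mice, also without overlap (log2 -0.39, 95% interval -0.79 to 0.01, limma adjusted p = 0.414).

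For Ctss the 22-month dwarf values of 1582, 992 and 1013 met the wild type values of 2287, 2115 and 1492 at 1 dwarf animal (log2 -0.73, 95% interval -1.25 to -0.20, limma adjusted p = 0.159). In Ctsa, Ctsd, Ctsh, Ctsl, Hexa and Lamp1 the genotypes overlapped at 22 months. With the genotype difference averaged over both ages, 1 of the 11 probe sets passed (Hexa, 1.38-fold higher in dwarf mice, log2 0.46 ± 0.13, limma adjusted p = 0.0302), beside 4.65% of all tested probe sets that were higher and 5.62% that were lower (10.3% in either direction). The 7 dwarf and 7 wild type values of Hexa overlapped, and the call ended in 9 of 24 alternatives, among them the common median, no filter and 7 of the 14 arrays left out 1 at a time (limma adjusted p up to 0.144).

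The array carries 4 probe sets of Ctsb, and they did not give the same picture. Probe set 95608_at, with 488.8 to 603.1 in dwarf mice of 22 months, 241.2 to 385.6 in wild type mice of 22 months, 288.6 to 476.5 in dwarf mice of 6 months and 203.5 to 411.2 in wild type mice of 6 months, changed with age in the same direction as 94831_at (log2 0.50 in dwarf mice and 0.16 in wild type mice, neither called). Probe set 92256_at had the opposite sign, with log2 -0.61 in dwarf mice (limma adjusted p = 0.168) and -0.67 in wild type mice (limma adjusted p = 0.255). Its signals were low, 137.7 to 222.6 over the 22-month arrays and 178 to 414.4 over the 6-month arrays, and it exceeded the test's minimum on 10 of 14 arrays. The fourth set, 162271_f_at, was not tested.

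**Figure D3:**
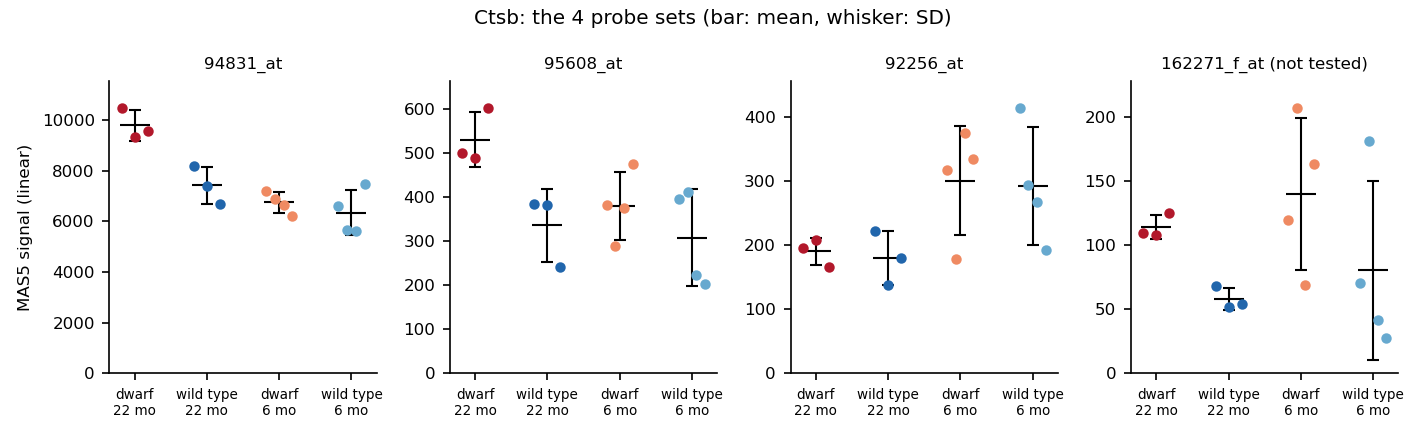
MAS5 signal (linear scale, 1 axis per probe set) of the 4 Ctsb probe sets in each mouse by group, with mean and SD. Sets 94831_at and 95608_at are highest in dwarf mice of 22 months, while 92256_at is lower at 22 than at 6 months on average in both genotypes.

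Other genes of the lysosome were described from lists. Of 5 other cathepsins tested, none passed with age in wild type mice, beside 2.48% of all 5473 genes called in either direction. The median log2 change was 0.62, against -0.02 over all genes. Between genotypes 2 of the 5 were lower in dwarf mice at 6 months and 1 at 22 months, beside 13.4% and 2.87% of all genes called. With age in dwarf mice 1 of the 5 was lower, beside 16.4% of all genes called. Ctsc, a dipeptidyl peptidase that activates granule proteases of immune cells, was lower in dwarf mice at both ages. It averaged 177 ± 34 in dwarf mice and 774 ± 111 in wild type mice of 22 months (SD, n = 3 each, log2 -2.14 ± 0.34, limma adjusted p = 0.00123), and 109 ± 42 in dwarf mice and 521 ± 178 in wild type mice of 6 months (SD, n = 4 each, log2 -2.26 ± 0.29, limma adjusted p = 9.34e-05). Ctse, an aspartic protease of endosomes, was lower in dwarf mice of 6 months (log2 -1.55 ± 0.37, limma adjusted p = 0.0119), from a probe set whose suffix marks possible related transcripts. Ctsk, the cysteine cathepsin of osteoclasts, was lower at 22 than at 6 months in dwarf mice (log2 -0.80 ± 0.24, limma adjusted p = 0.0335).

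Of 20 other hydrolases tested, none passed with age in wild type mice (median log2 -0.01), and 2 were higher and 2 lower with age in dwarf mice. Over all genes 2.48% were called with age in wild type mice and 16.4% in dwarf mice, and the count of 4 among 20 is near that share in dwarf mice. The fucosidase Fuca1 averaged 639 ± 109 in dwarf mice of 22 months (SD, n = 3) and 326 ± 62 at 6 months (SD, n = 4, log2 0.98 ± 0.21, limma adjusted p = 0.0075). The tripeptidyl peptidase Tpp1 averaged 2017 ± 221 in dwarf mice of 22 months (SD, n = 3) and 3873 ± 762 at 6 months (SD, n = 4, log2 -0.93 ± 0.18, limma adjusted p = 0.00373). The acid phosphatase Acp5 was the other higher gene (log2 0.55 ± 0.18) and the alpha-glucosidase Gaa the other lower one (log2 -0.36 ± 0.11).

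Between genotypes, the neuraminidase Neu1, which depends on cathepsin A for its stability, was higher in dwarf mice of 6 months (log2 0.83 ± 0.21, limma adjusted p = 0.0144). The dipeptidyl peptidase Dpp7 was lower in dwarf mice at 22 months (log2 -0.90 ± 0.22, limma adjusted p = 0.0313) and at 6 months (log2 -0.70 ± 0.19, limma adjusted p = 0.0208). The mannosidase Man2b1 was higher in dwarf mice at 22 months (log2 0.76 ± 0.17, limma adjusted p = 0.0221). These were the only calls among the 20 hydrolases in the 2 genotype comparisons. At each age 1 was higher and 1 lower, beside 13.4% of all genes called in either direction at 6 months and 2.87% at 22 months.

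Membrane proteins beside Lamp1 gave 2 calls of 7 with age in wild type mice, both higher, beside 2.48% of all genes. Cd63, a tetraspanin of late endosomes, averaged 657 ± 423 in wild type mice of 22 months (SD, n = 3) and 145 ± 36.8 at 6 months (SD, n = 4, log2 2.03 ± 0.36, limma adjusted p = 0.0107). Laptm5, a lysosomal protein of haematopoietic cells read from a set with the suffix for related transcripts, averaged 878 ± 71.7 in wild type mice of 22 months (SD, n = 3) and 487 ± 30.6 at 6 months (SD, n = 4, log2 0.85 ± 0.13, limma adjusted p = 0.00474). Both had negative interactions that passed (log2 -2.63 ± 0.51, limma adjusted p = 0.0172, for Cd63 and -0.95 ± 0.19, limma adjusted p = 0.0192, for Laptm5).

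At 6 months 3 of 7 membrane protein genes were higher in dwarf mice and 1 was lower, beside 13.4% of all genes called in either direction. The higher ones were Cd63 (log2 2.56 ± 0.33), Laptm5 (0.52 ± 0.12) and Npc1, the membrane partner of Npc2 (1.31 ± 0.31, limma adjusted p = 0.0107). Lamp2, the close relative of Lamp1 that serves chaperone-mediated autophagy, was lower (log2 -0.57 ± 0.13, limma adjusted p = 0.00971). Npc1 averaged 5189 ± 1391 in dwarf mice and 2173 ± 826 in wild type mice of 6 months (SD, n = 4 each), and in dwarf mice of 22 months it averaged 2535 ± 834 (SD, n = 3) and was lower than at 6 months (log2 -1.05 ± 0.34, limma adjusted p = 0.0428). Npc2, set beside it, had a 6-month genotype change of log2 0.25 (95% interval -0.10 to 0.60).

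Among 5 activators and sorting proteins, Gm2a, which presents GM2 ganglioside to the enzyme that contains Hexa, was higher at 22 than at 6 months in dwarf mice, with a mean of 1347 ± 220 at 22 months (SD, n = 3) and 734 ± 220 at 6 months (SD, n = 4, log2 0.92 ± 0.23, limma adjusted p = 0.014). In wild type mice its change was log2 0.78 ± 0.23 (limma adjusted p = 0.0764). Igf2r, the mannose 6-phosphate receptor that sorts lysosomal enzymes, was higher in dwarf mice of 22 months (log2 0.61 ± 0.15, limma adjusted p = 0.0407). Gm2a and Igf2r were each the only call of the 5 in their comparison. None of 15 subunits of the proton pump passed with age in either genotype. Atp6v1g1 was lower in dwarf mice at 22 months (log2 -0.73 ± 0.15, limma adjusted p = 0.0108) and at 6 months (log2 -0.43 ± 0.13, limma adjusted p = 0.0374), the only call of the 15 at each age. Over all genes 2.48% were called with age in wild type mice and 16.4% in dwarf mice, in either direction. Between genotypes 13.4% were called at 6 months and 2.87% at 22 months. The cathepsin inhibitors Cst3 and Cstb did not pass in any of the age or genotype comparisons, and of the TFEB family 2 genes had a probe set and neither was tested.

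**Figure D4:**
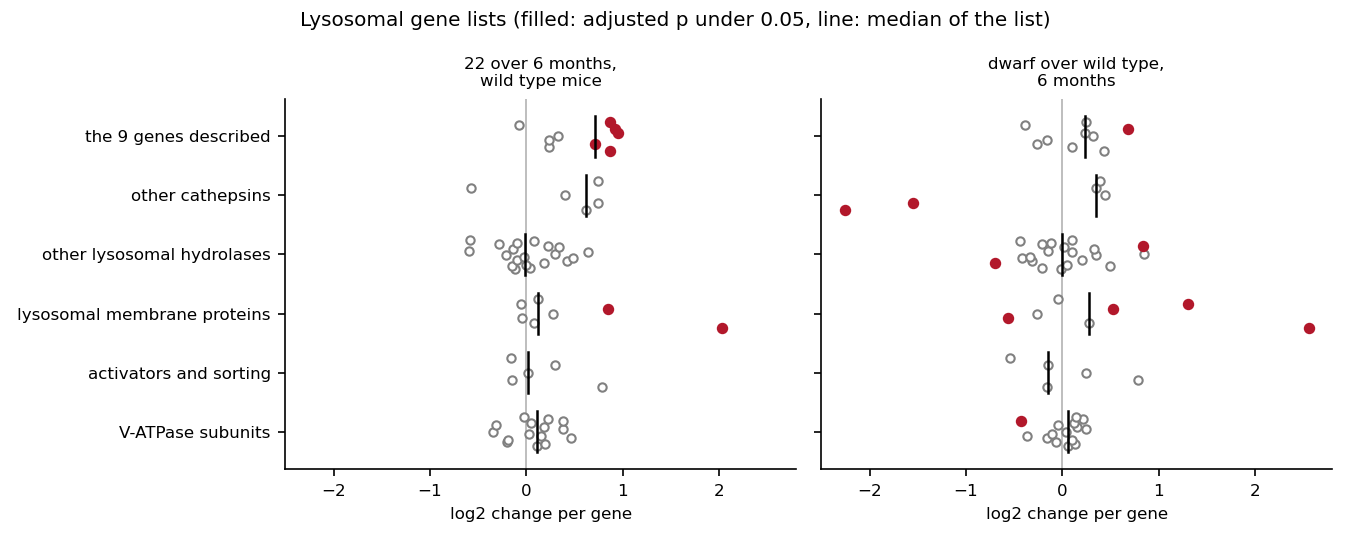
Log2 change per gene (horizontal axis) in lists of lysosomal genes, for 22 over 6 months in wild type mice (left) and dwarf over wild type mice at 6 months (right), filled where the limma adjusted p is under 0.05, with the list median as a line. On the left 5 of the 9 genes described are filled, beside 0 of 5 other cathepsins, 0 of 20 other hydrolases and 2 of 7 membrane proteins. The genes and lists were chosen with earlier results of these data known, so these counts are a description.

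Markers of macrophages and Kupffer cells are given beside Ctss. The summed signal of 13 measured markers was 7606 to 11402 in wild type mice of 22 months, against 5293 to 8773 at 6 months, and the ages overlapped. In dwarf mice the sum was 5287.5 to 6617 at 22 months, against 5791 to 7011 at 6 months. Of the 10 tested markers 1 was higher with age in wild type mice, the lysozyme gene Lyz2 (log2 0.75 ± 0.18, limma adjusted p = 0.0391). This stands beside 2.48% of all genes called in either direction. The list median was log2 0.56, against -0.02 over all genes. At 22 months 1 was lower in dwarf mice, the Kupffer cell lectin Clec4f (log2 -1.16 ± 0.26, limma adjusted p = 0.0196), beside 2.87% of all genes called. The list median was then log2 -0.67. Marco, a scavenger receptor, lay at or below the floor on all 14 arrays, and 10 of the 13 were above it on all arrays.

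The summed signal of 7 antigen-presenting and B cell markers, which include the MHC class II genes, was 5079 to 8478 in wild type mice of 22 months, against 2235 to 4303 at 6 months. The sum in dwarf mice was 3746 to 4379.9 at 22 months, against 4035 to 7079.7 at 6 months. With age in wild type mice 3 of the 7 were higher (H2-Aa, H2-Ab1 and Cd74), beside 2.48% of all genes called in either direction. The others were not called: H2-Eb1 (log2 0.67) and the B cell markers Cd79b (0.29), Ms4a1 (-0.01) and Cd79a (-0.36). The part of these cells in the changes of Ctss and the other members was not tested.

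**Figure D5:**
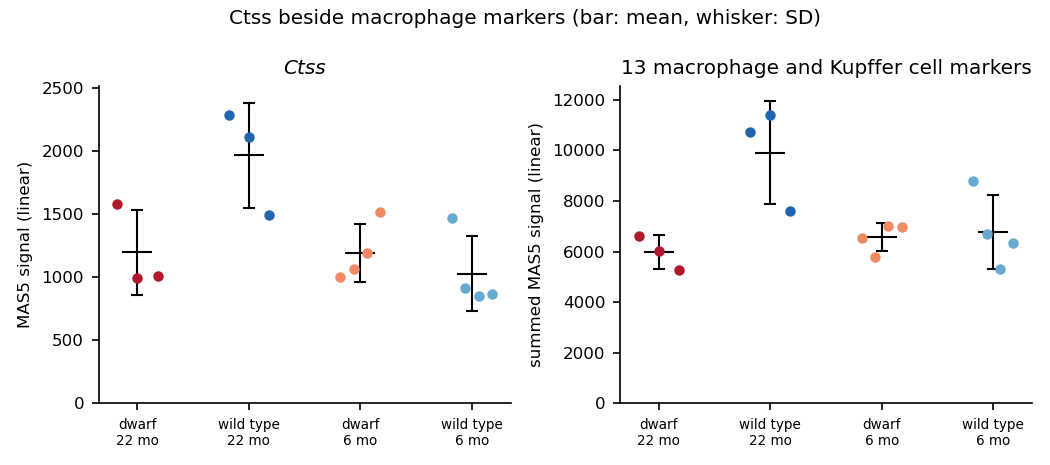
MAS5 signal of Ctss (left) and summed signal of 13 macrophage and Kupffer cell markers (right), linear scale, in each mouse by group, with mean and SD. Both means are highest in wild type mice of 22 months, and wild type animal 82 is the highest of the 6-month wild type mice in both panels (1469.5 and 8773).

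None of 3 endothelial, 3 neutrophil, 4 stellate and fibroblast and 1 T cell markers tested passed with age in wild type mice, and 1 of 9 hepatocyte markers was higher (Ahsg, log2 0.62 ± 0.15), beside 2.48% of all genes called in either direction. At 6 months, where 13.4% of all genes were called in either direction, 2 of 3 endothelial markers (Kdr and Stab1) and 4 of 9 hepatocyte markers (among them Alb, Apoa1 and Cps1) were higher in dwarf mice, and the summed hepatocyte markers were 187176 to 253527 in dwarf mice, against 144769 to 176550 in wild type mice. Of the antigen-presenting and B cell markers 4 of 7 were higher (H2-Aa, H2-Eb1, Cd74 and the B cell marker Cd79b). At 22 months no endothelial, neutrophil, stellate, T cell or hepatocyte marker passed between genotypes. With age in dwarf mice, where 16.4% of all genes were called, every marker call was lower: 3 hepatocyte markers (Alb, Apoa1 and Tat) and 1 each of the macrophage (Cd14), antigen-presenting (H2-Eb1), neutrophil (Camp), endothelial (Stab1) and stellate (Col1a2) lists. The part of these cells in the results on Hexa, Ctsb and Ctsd was not tested.

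For the members with a call, the genes whose log2 signal followed them most closely over the 14 arrays were found among 5472 others by Pearson's correlation, given as a description because the 14 arrays share groups and array measures. Ctss was nearest to C1qb (0.872), a complement gene of macrophages, and to Cd5l (0.827), a secreted macrophage protein, both of which stand among the macrophage markers. Npc2 was nearest to Ctsa (0.884) and to the elongation factor Eef2 (0.88), and Ctsa to Chtf8 (0.936) and Eef2 (0.925). Ctsd was nearest to Brk1 (0.974) and Commd5 (0.953), Ctsb to Ppm1g (0.891) and Pfdn2 (0.889), and Hexa to Kdelr2 (0.892) and Ndufa6 (0.868).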

How the data were processed

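Liver total RNA of 14 mice was labelled with biotin, per the labels, and hybridised to Affymetrix arrays. Per the submitters' processing notes the authors used MAS5, and the deposited values are taken as its signal intensities, 1 per probe set. They were used as deposited, since the trimmed means of the arrays (2% at each end) ran from 500.357 to 500.437. Gene symbols came from the array annotation, updated through the gene identifier (RefSeq, GRCm38.p6), for 10855 probe sets with 1 symbol (396 had several and 1237 were not listed).

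A floor of 54.9, which is the 25th percentile over all arrays, replaced lower values before log2 was taken. The 66 control probe sets were left out. The 4 group means were estimated from all 14 arrays together for 7227 probe sets (limma 3.58.1, R 4.3.3, moderated with a trend on mean intensity). Each of 6 contrasts had its own Benjamini-Hochberg adjustment over these probe sets, with calls made at an adjusted p under 0.05. The pipeline was tested on simulated data. In lists, a gene was represented by its tested probe set with the highest mean.

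Named genes were all probe sets of the members and up to 3 called genes of each other lysosomal list and comparison. Up to 3 called markers of a cell type and the 2 genes nearest to each called member were also named. Npc1 and Cd79b at 6 months, Acp5, Marco, Cst3, Cstb and the uncalled changes of Gm2a, H2-Eb1, Cd79a, Cd79b and Ms4a1 were added after their values were seen. The members and lists were chosen with earlier results of these data known. Replicates are separate animals by the numbers in the labels. Alternatives are given in the closing section.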

Additional observations from a re-analysis of the deposited data

Results flagged for a closer look

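Of 26 groups of 4 arrays examined (13 probe sets in each genotype at 6 months), 2 held a mouse far from the other 3, and chance marks about 1 group in 20. Ctsd was 3229.5 in dwarf animal 83, against 2098.5 to 2245.7 in the other dwarf mice of 6 months. Without this animal the age change of Ctsd in dwarf mice was log2 0.95 (limma adjusted p = 0.00219). Ctss was 1469.5 in wild type animal 82, against 854.5 to 910.6 in the other wild type mice of 6 months. Without it the age change of Ctss in wild type mice was log2 1.14 (limma adjusted p = 0.025). The summed macrophage markers of animal 82 were 8773, against 5293 to 6688 in those 3 mice.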

How the results depend on the processing

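No paired analysis was possible because no animal number occurs in more than 1 group. Over 25 alternatives (24 for the interaction and the average over ages), 14 of which left out 1 array each, none of the 9 calls among the 11 probe sets reversed, and each ended under at least 1. Of 1616 values, 57 lost a call, 19 gained one and 1540 stayed on their side of the threshold. With age in wild type mice 5 calls became 4 with quantile normalization (without Ctss), 3 with a common median, with no filter, with no intensity trend and with the 3′ to 5′ ratio as covariate, 1 with the compared groups alone (Ctsa) and 0 with the 18S signal as covariate, and 1 to 5 without single arrays. Ctsa passed without any one array, Hexa lost the call without wild type animal 2, 24 or 86, and Npc2 without 1, 2, 84 or 86. Ctsd lost it without 11 of the 14 arrays (highest adjusted p = 0.378 over all alternatives), and Ctss without 6 (wild type animals 1, 2, 84 and 86, dwarf animals 4 and 87, highest 0.268). With age in dwarf mice 2 calls became 0 with either covariate, 3 with a common median and 3 with array weights (both with Hexa), and 1 to 3 without single arrays: Ctsb lost its call without dwarf animal 3, and Lamp1 gained one without dwarf animal 83. Between genotypes at 6 months the count of 1 became 3 with quantile normalization, 3 with the filter at the 75th percentile, 3 with array weights and 2 with the 3′ to 5′ ratio, and 1 to 2 without single arrays. At 22 months 0 became 1 with array weights and stayed 0 without single arrays, as did the interaction. The average over ages went to 3 with quantile normalization, 2 with array weights and with the 3′ to 5′ ratio, and 0 with a common median and with no filter, against 1, and to 0 to 2 without single arrays (Hexa lost its call without wild type animal 1, 24 or 86 or dwarf animal 3, 4, 83 or 89). The floor at the 10th percentile and log2 of the signal plus 50 in its place changed none of these counts. The cause of these losses was not tested.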

Other observations

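The 2 probe sets of the members that were not tested gave low signals. Ctsb 162271_f_at, whose suffix marks possible related transcripts, had 109, 108 and 125 in dwarf mice of 22 months, against 67.7, 51.5 and 54.2 in wild type mice of 22 months. At 6 months it had 119, 207, 69 and 163 in dwarf mice, against 70.1, 181, 41.7 and 27.9 in wild type mice. Hexa 162488_at lay at or below the floor of 54.9 on 13 of 14 arrays, the exception being 68.5 in a dwarf mouse of 22 months.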
